A study of Mus musculus with 24 samples.

Results

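Apical sphingosine-1-phosphate (S1P) was compared with an apical agonist of the S1P4 receptor in cultures of primary endothelium isolated from mouse brain microvessels (MBMECs), the cell layer that forms the blood-brain barrier. The comparison was defined by the labels and rests on 8 of the 24 libraries in the series: 4 with 50 nM S1P on the apical (blood-facing) side and 4 with 500 nM CYM50260 on the same side. The 4 libraries given vehicle medium served for both ligands, and the 8 libraries treated from the basal side, 4 with 50 nM S1P and 4 with 500 nM CYM50260, were used for 1 test. All 20 of these libraries were wild type, of the C57B/6J strain. The 4 vehicle-treated S1P4 knockout libraries, whose table was normalized separately, were not used here. The cells came from cortical and midbrain microvessels of 12 pooled mice per replicate, were kept in puromycin for 48 h to remove other cell types, were seeded on transwell inserts, and were treated 48 h later for 24 h. Poly(A) RNA of 3 pooled inserts was then sequenced. The submitters describe both apical treatments as tightening the barrier, so the question is whether 2 treatments with the same described effect left different RNA. Because the doses differed, the comparison is between these treatments as given and not between the ligands at a matched dose.

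S1P is a lipid mediator that blood carries at a higher level than tissue. It acts through a family of G protein-coupled receptors: S1P1 couples to Gi and is known for keeping endothelial junctions closed, S1P2 couples to G12/13 and RhoA and is known for opening them, S1P3 couples to several G proteins, and S1P4 and S1P5 are best known from lymphocytes and from oligodendrocytes and natural killer cells. S1P binds the whole family, whereas CYM50260 was developed as a selective agonist of S1P4. Background of this kind says nothing about which receptor was engaged in these cells.

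The 8 libraries held 4491592 to 4691202 normalized counts each, with 1071 to 1746 of 18091 genes at 0 and no value above 8151. All 20 endothelial markers were measured, and they summed to 28985 to 29579 in the S1P libraries and 29697 to 31474 in the agonist libraries. No erythroid marker was in the table, and 8 of 10 microglial and 5 of 6 astrocyte markers averaged under 10. Pericyte markers were present and uneven: they summed to 2849, 2281, 1800 and 949 in S1P replicates 1 to 4, to 2540, 2262, 995 and 406 in agonist replicates 1 to 4, and to between 323 and 2856 in vehicle libraries. Xist, which female cells express, stood at 0, 2555, 525 and 1417 in the S1P libraries, 0, 1382, 1188 and 244 in the agonist libraries, and 1, 2251, 1063 and 190 in the vehicle libraries. By Xist, S1P replicates 3 and 4 and agonist replicate 2 were unlike the vehicle library of their number. Every fit was repeated without these 3 libraries, and the median is given beside each pathway list below. For single genes the value is given only where the sign turned among the 100 followed. For the other genes it is not printed. The fit without them leaves 2 S1P and 3 agonist libraries. Basal S1P replicate 2, with Xist of 552, was also unlike the vehicle library of its number and was kept. Replicate 4 of vehicle, the apical agonist, basal S1P and the basal agonist had pericyte sums of 323, 406, 318 and 276. No apical S1P library had so low a sum. Where genes follow such libraries, a difference between the ligands cannot be told apart from this imbalance. The main axis of variation over the 8 libraries (principal component 1, 49.5% of the variance) gave scores of -28.5, -24.4, 13.9 and 30.1 for S1P and -28.9, -4.2, 35.4 and 6.7 for the agonist, so both ligands ranged over most of it. The sources used here do not say which library came from which pool of mice; each p-value reflects the scatter among these libraries alone, and part of it may be technical.

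Of the 12249 genes that averaged 10 or more across all 20 libraries, 0 (0%) differed between apical S1P and the apical agonist at an adjusted p under 0.05 (limma over all 20 libraries, Benjamini-Hochberg adjustment). The smallest adjusted p was 1.00. At an unadjusted p under 0.05 there were 101 genes (0.825%), of which 64 (0.522%) had higher and 37 (0.302%) had lower values with S1P. With the replicate number as a block, 529 genes (4.32%) passed that unadjusted mark, 295 higher (2.41%) and 234 lower (1.91%), and again 0 passed the adjusted one. Chance alone puts on average about 1 in 20 genes under an unadjusted 0.05, and both shares were below that. Unadjusted p-values of single genes below are therefore descriptions only. Blocked values have to be read with the match of the numbers in mind. Deviations from the group mean of S1P replicate 4 correlated at 0.7 with agonist replicate 3 and at 0.171 with agonist replicate 4, and those of S1P replicate 2 at 0.549 with agonist replicate 1 and at 0.14 with agonist replicate 2. For 2 of the 4 pairs the closer match thus carried another number, and whether libraries were exchanged cannot be told from the sources used here. The 101 became 169 or 191 without S1P replicate 1 or 4, 181 or 195 without agonist replicate 1 or 3, and 175 without the 3 libraries unlike their number.

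A count of 0 does not show that the treatments acted alike, so the size of difference that these libraries allow was read from the intervals. For 11197 genes (91.4%) the 95% interval of the log2 difference lay within 2-fold in both directions. This share was 72% among the 3209 genes with a mean under 100, 98.2% among the 8154 genes between 100 and 1000, and 99.8% among the 886 genes at 1000 or above. For low genes, therefore, a 2-fold difference could often not be excluded. Without the 3 libraries unlike their number the share was 82.1% of the tested genes, and with no filter on low values it was 65.5% of 18091 genes.

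**Figure D1:**
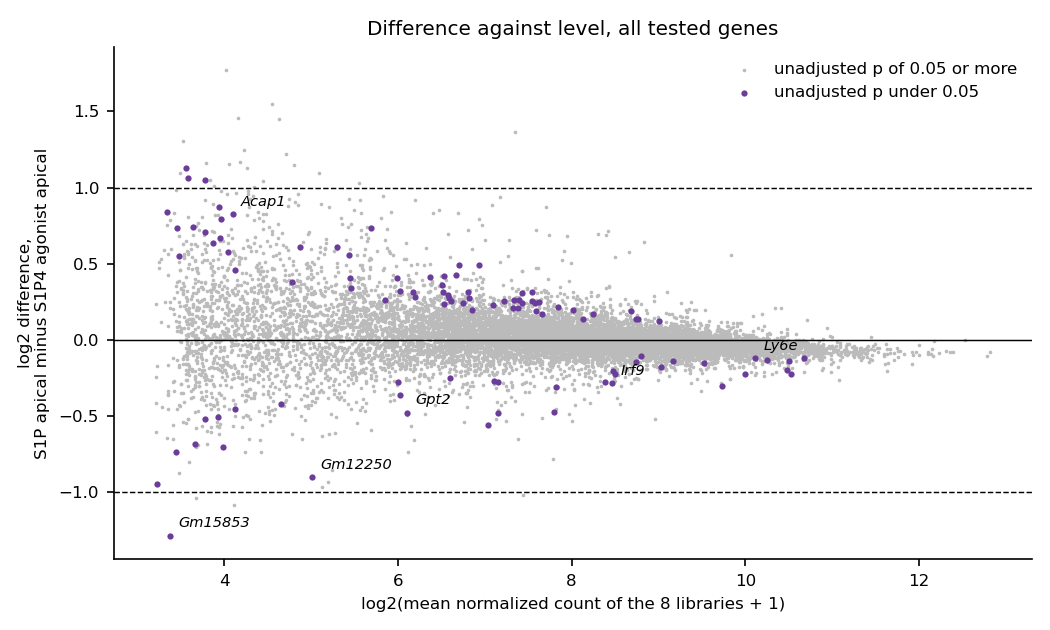
Each point is 1 of 12249 tested genes. The x axis gives log2 of its mean normalized count over the 8 libraries plus 1, and the y axis the log2 difference, S1P apical minus S1P4 agonist apical. Purple points are the 101 genes with an unadjusted p under 0.05, none of which passed adjustment, and dashed lines mark 2-fold. The cloud widens at low levels, and at high levels it lies slightly below 0.

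The direction of small differences went with expression level. Among the 886 genes with a mean of 1000 or above, 812 (91.6%) had lower means with S1P, with a median log2 difference of -0.06, whereas among the 3209 genes under 100 only 1197 (37.3%) did, with a median of 0.07. Over all tested genes 5879 were higher and 6370 lower with S1P, and the median was -0.00. After quantile normalization, which gives every library the same distribution of values, 51.8% of the abundant genes and 51.1% of the low genes were lower. Directions of gene lists are therefore given below in both scalings.

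The receptors themselves came first among the named genes. S1pr4, the gene of the agonist's target (ENSMUSG00000044199), had 150, 113, 168 and 190 normalized counts in the S1P libraries, against 133, 149, 167 and 157 in the agonist libraries and 128, 130, 189 and 153 in vehicle libraries. The 3 groups overlapped, with means of 155 ± 32.6 for S1P and 152 ± 14.4 for the agonist (SD, n = 4 each). The log2 difference was 0.01 ± 0.16 (SE, limma), with a 95% interval of -0.33 to 0.36, and its sign turned to -0.02 under quantile normalization, to -0.12 with array weights, to -0.09 without S1P replicate 4 and to -0.22 without the 3 libraries unlike their number. S1pr1, the most abundant receptor gene here, had 1332, 1291, 1473 and 1685 with S1P, against 1372, 1485, 1762 and 1630 with the agonist, a log2 difference of -0.11 ± 0.13 whose interval ran from -0.39 to 0.16. Both receptors were thus bounded well within 2-fold.

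S1pr2 had 70, 56, 84 and 101 normalized counts with S1P and 70, 53, 80 and 60 with the agonist, a log2 difference of 0.22 ± 0.20 (SE), which turned to -0.15 without the 3 libraries unlike their number. S1pr3 had 48, 51, 43 and 21 with S1P and 40, 45, 24 and 8 with the agonist, a log2 difference of 0.63 ± 0.88, and its interval of -1.21 to 2.48 left a 2-fold difference in either direction possible. S1pr3 was lowest in replicate 4 of both groups, as the pericyte markers were, and the part of those cells in its values was not tested. S1pr5 had no value in the table. Over the 4 tested receptors the median log2 difference was 0.12, with 3 higher, or 0.06 with 2 higher under quantile normalization, and -0.18 with 1 higher without the 3 libraries.

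Of the genes that make, break down or export S1P, 12 of 15 listed were tested, 0 passed, 10 were lower and 2 higher with S1P, and the median log2 difference was -0.03 in either scaling, beside -0.00 over all tested genes. Without S1P replicate 2 there were 6 on each side with a median of 0.00, and without the 3 libraries unlike their number 9 were lower with a median of -0.11. The sphingosine kinase gene Sphk2 averaged 361 ± 36.1 with S1P and 368 ± 10.2 with the agonist (SD, n = 4). The exporter gene Spns2 averaged 965 ± 128 with S1P and 935 ± 89.6 with the agonist. Sgpl1, the gene of the lyase that degrades S1P irreversibly, averaged 627 ± 23.5 with S1P and 636 ± 46.1 with the agonist, a log2 difference of -0.02 ± 0.06. The acid ceramidase gene Asah1 had the smallest p of the list, at -0.09 ± 0.08.

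The 4 S1P libraries lay entirely above the 4 agonist libraries for 45 genes (0.367% of those tested) and entirely below them for 43 (0.351%). Both shares are small, and none of these 88 genes passed adjustment. With 4 libraries per group some genes separate by chance alone, and that share was not computed. The genes below are the 10 in each direction with the smallest p, given as values that did not pass.

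Gpt2, the gene of mitochondrial alanine aminotransferase, had the smallest p of all. Its locus is chr8:85492576-85527560 (plus strand, mm10). It had 62, 57, 48 and 59 normalized counts with S1P, against 72, 72, 79 and 94 with the agonist and 75, 70, 79 and 72 with vehicle. The S1P libraries were low and did not overlap either other group, while agonist and vehicle libraries overlapped. The log2 difference from the agonist was -0.48 ± 0.13 (SE, limma), with a 95% interval of -0.74 to -0.21, an unadjusted p of 0.00129 and an adjusted p of 1.00.

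Among the 10 genes with lower values with S1P, Gm12250, also known as Irgb10, belongs to the mouse immunity-related GTPases, although the annotation used here lists it as a processed pseudogene. It had 25, 25, 10 and 28 with S1P, against 45, 31, 31 and 55 with the agonist and 27, 35, 31 and 66 with vehicle. Its log2 difference was -0.90 ± 0.32, and S1P replicate 3 was the low library. Igtp, a GTPase of the same family, had 184, 205, 197 and 209 with S1P, against 214, 222, 228 and 342 with the agonist, a log2 difference of -0.31 ± 0.13. Here agonist replicate 4 was the high library. Ly6e, a membrane-anchored protein that interferon induces, had 1071, 1038, 1062 and 1066 with S1P, against 1186, 1156, 1139 and 1119 with the agonist and 1016, 1047, 1018 and 1122 with vehicle. For Ly6e the highest vehicle library just overlapped the agonist group, and S1P lay within the vehicle range, with a log2 difference of -0.12 ± 0.05 between the ligands. Azi2, an adaptor of the kinase TBK1, had 443, 430, 423 and 423 with S1P and 452, 453, 465 and 477 with the agonist, a log2 difference of -0.10 ± 0.04.

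The immediate-early gene Ier2 had 320, 334, 316 and 358 with S1P, against 385, 363, 387 and 420 with the agonist, a log2 difference of -0.23 ± 0.09. The other members of this direction were the scaffold gene Magi2 at -0.45 ± 0.20, the myosin light chain gene Myl12b at -0.36 ± 0.16, the long noncoding RNA Gm15853 at -1.29 ± 0.50, and Csnk2a3, annotated as a processed pseudogene, at -0.68 ± 0.26. Myl12b and Csnk2a3 have near-identical copies elsewhere in the genome, so reads may be split among them and their values are uncertain. Gm15853 and Csnk2a3 averaged 5.75 and 8.75 normalized counts with S1P, where 1 count matters.

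In the other direction, Acap1, which encodes a GTPase-activating protein for ARF6, had 20, 18, 22 and 23 with S1P, against 13, 9, 15 and 9 with the agonist and 10, 13, 12 and 8 with vehicle. Its S1P libraries were above both other groups, and the log2 difference from the agonist was 0.82 ± 0.29 (SE). Khk, the gene of ketohexokinase, the first enzyme of fructose breakdown, had 105, 102, 100 and 108 with S1P, against 86, 92, 71 and 90 with the agonist and 101, 91, 103 and 102 with vehicle. For Khk the agonist libraries were the low ones, and the log2 difference was 0.30 ± 0.11.

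Rmdn1, a gene of a microtubule-associated protein, had 46, 52, 51 and 46 with S1P, against 35, 44, 34 and 34 with the agonist, a log2 difference of 0.40 ± 0.15. Gtdc1, which encodes a glycosyltransferase-like protein, had 184, 198, 179 and 180 with S1P, against 158, 131, 165 and 174 with the agonist, a log2 difference of 0.24 ± 0.09. The remaining 6 were Fancl, a ubiquitin ligase subunit of the Fanconi anaemia pathway, at 0.31 ± 0.12, Exosc3, a subunit of the RNA exosome, at 0.25 ± 0.10, the ubiquitin ligase gene Rffl at 0.24 ± 0.10, Pyurf at 0.32 ± 0.12, Vsig10l at 0.38 ± 0.15 and the long noncoding RNA Gm36371 at 0.67 ± 0.23. Of these 20 genes, Gm15853, Gm12250, Acap1, Csnk2a3 and Gm36371 had the widest log2 differences, and each averaged under 50 in both groups.

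**Figure D2:**
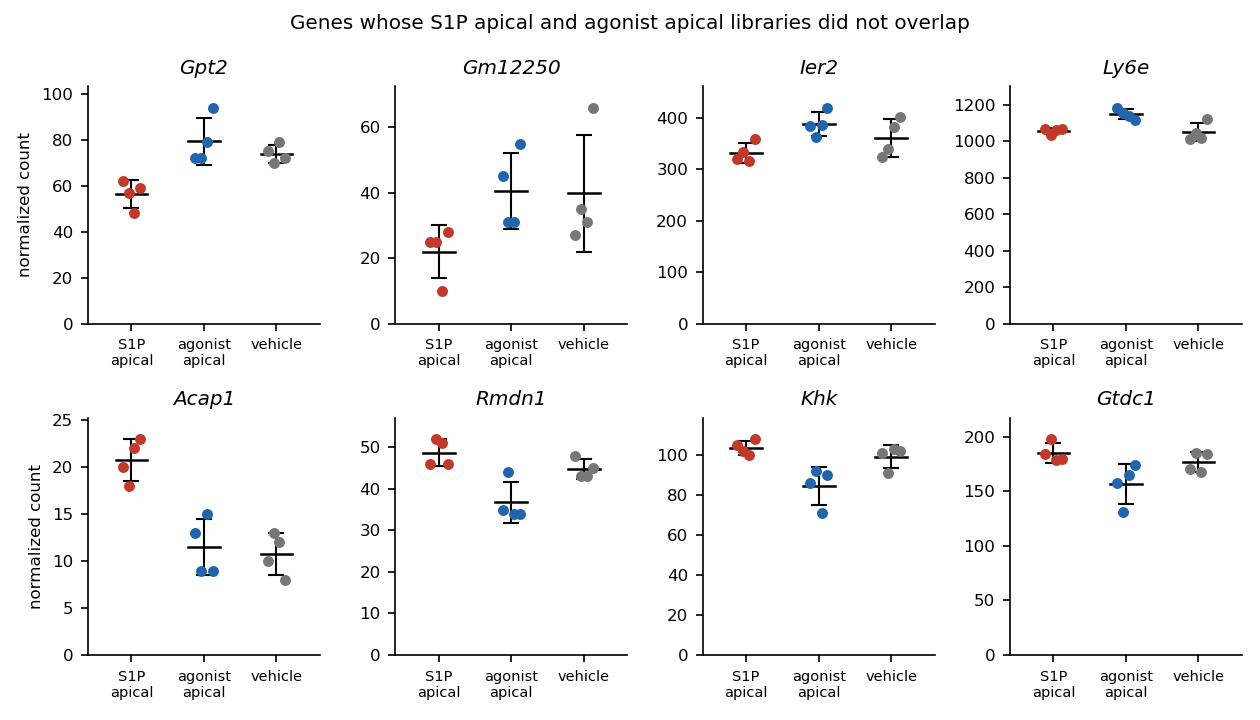
Normalized counts of 8 genes whose S1P apical and agonist apical libraries did not overlap. Points are single libraries of S1P apical (red), S1P4 agonist apical (blue) and vehicle (grey), lines the group means and bars the SD (n = 4 each), with each y axis starting at 0. Vehicle was near the agonist for Gpt2 and Acap1 and near S1P for Ly6e and Khk.

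Each ligand was also set against the same 4 vehicle libraries, which the 2 comparisons share, so the values are given side by side. Apical S1P against vehicle gave 0 called genes by limma (0%) and 122 at an unadjusted p under 0.05 (0.996%), and the apical agonist against vehicle gave 0 (0%) and 134 (1.09%). Gpt2 was at -0.39 ± 0.13 (log2, SE) for S1P minus vehicle and 0.09 ± 0.13 for agonist minus vehicle. The median log2 difference from vehicle over all tested genes was -0.00 for S1P and -0.00 for the agonist.

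The gene lists were read as counts and medians, beside those of all tested genes, of which 48% were higher and 52% lower with S1P. No member of any of the 27 pathway lists passed adjustment, with or without the replicate block. With all 8 libraries most list medians were within 0.1 of 0 on the log2 scale, and the exceptions were the S1P receptors, leukocyte adhesion and NF-kB genes, interferon response genes and cell cycle genes.

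**Figure D3:**
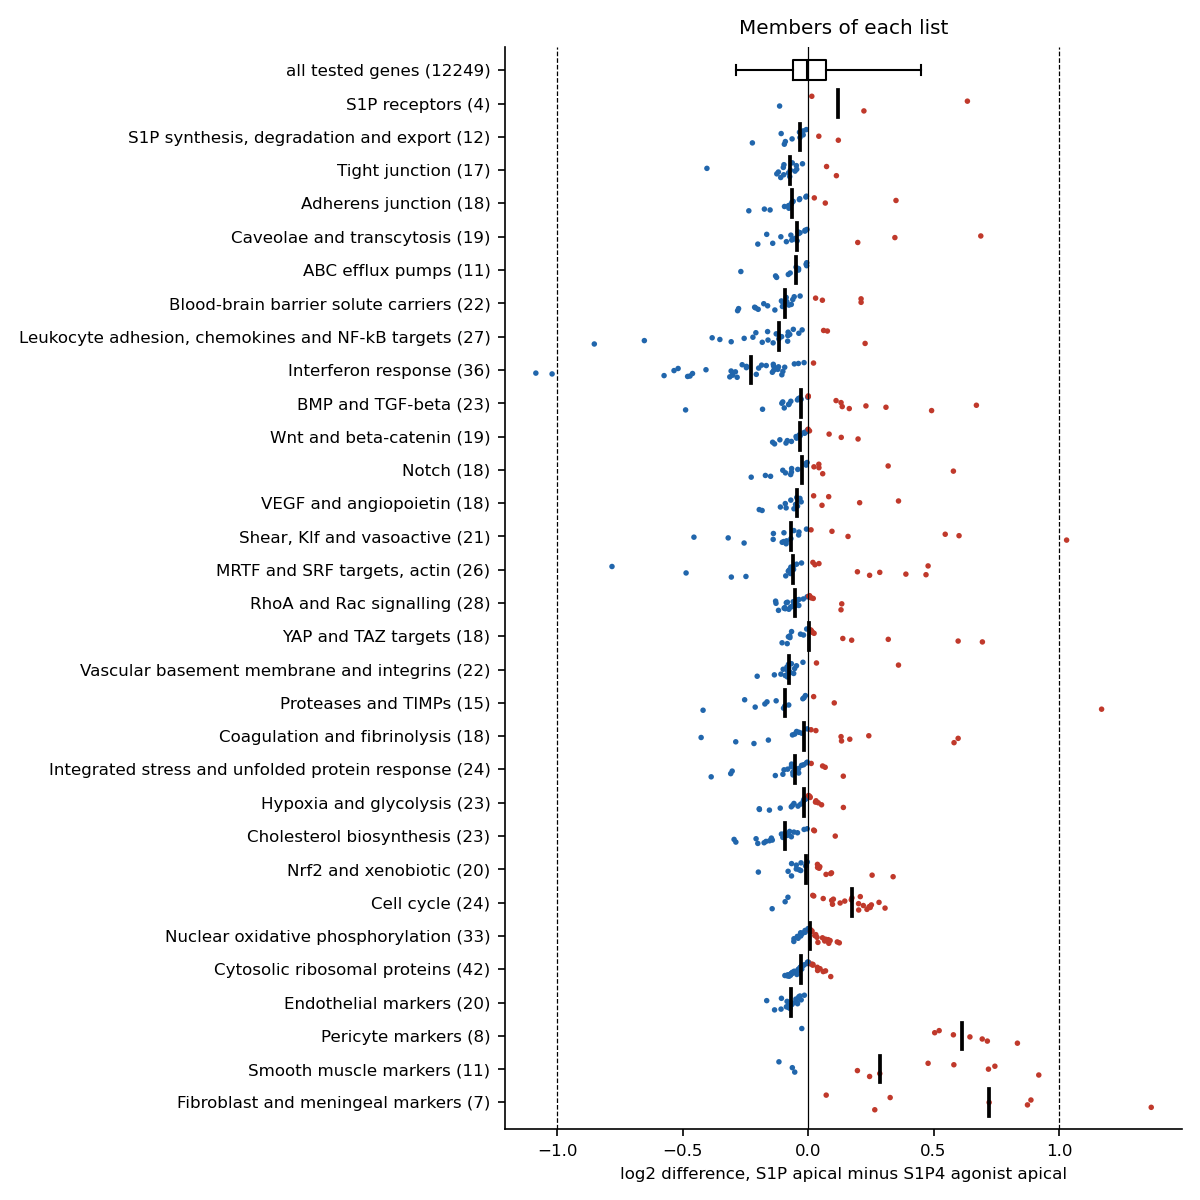
Each point is a tested member of a list, with its number of tested members in parentheses, and the x axis gives its log2 difference, S1P apical minus S1P4 agonist apical (red above 0, blue below). Dashed lines mark 2-fold, and black bars are list medians; the box at the top gives the median and quartiles of all 12249 tested genes and its whiskers span the middle 95% of them. Interferon response genes lie to the left (35 of 36 below 0), and cell cycle genes (21 of 24 above 0) and pericyte, smooth muscle and fibroblast markers to the right.

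Genes of the tight junction, which seals the space between endothelial cells, differed little. Of 17 tested, 15 were lower and 2 higher with S1P, 0 were called, and the median log2 difference was -0.07. The median was -0.03, with 12 lower, under quantile normalization, and 6 of the 17 averaged 1000 or above, the range in which most genes were lower. The fit without the 3 libraries unlike their number had 11 of 17 lower, with a median of -0.08. Cldn5, the main claudin of brain endothelium, averaged 895 ± 37.5 with S1P and 945 ± 50.7 with the agonist (SD, n = 4), a log2 difference of -0.08 ± 0.08. Ocln, the gene of occludin, averaged 1107 ± 27.3 with S1P and 1124 ± 30.6 with the agonist. The scaffold gene Tjp1 averaged 2863 ± 85.5 with S1P and 2975 ± 246 with the agonist. Cgnl1, the gene of paracingulin, had the smallest p of the list, with 2451, 2461, 2285 and 2589 in the S1P libraries, against 2509, 2776, 2649 and 2619 in the agonist libraries, groups that overlapped.

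Of 18 adherens junction genes 15 were lower and 3 higher with S1P, with a median of -0.07, but under quantile normalization 11 were higher and the median was 0.01. Leaving out the 3 libraries left 12 lower, with a median of -0.09. Cdh5, the gene of VE-cadherin, averaged 2865 ± 138 with S1P and 3025 ± 154 with the agonist, a log2 difference of -0.08 ± 0.07. The nectin gene Nectin1 had 344, 292, 224 and 318 with S1P, against 356, 352, 314 and 351 with the agonist, a log2 difference of -0.24 ± 0.12, which turned to 0.04 with the block and without the 3 libraries. Of 19 genes of caveolae and transcytosis, 16 were lower and 3 higher, with a median of -0.04. Under quantile normalization 11 were higher, and without the 3 libraries 14 were lower with a median of -0.10. Insr, the insulin receptor, had 1282, 1221, 945 and 1083 with S1P, against 1288, 1287, 1099 and 1301 with the agonist, groups that overlapped, and a log2 difference of -0.14 ± 0.11, which turned to 0.03 without the 3 libraries unlike their number.

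All 11 genes listed as ABC efflux pumps, some of whose products return drugs to the blood, had lower means with S1P. Their median was -0.05, and 8 of 11 were lower under quantile normalization. The median was -0.02 without agonist replicate 3. Without the 3 libraries unlike their number 6 of 11 were lower, with or without the block. The median was then -0.07 with no block and -0.02 with it. Abcb1a, the gene of P-glycoprotein, averaged 1277 ± 86.6 with S1P and 1350 ± 118 with the agonist, a log2 difference of -0.08 ± 0.08 that became 0.02 without the 3 libraries, with or without the block. Abcg2 averaged 1181 ± 108 with S1P and 1182 ± 39.3 with the agonist. Of 22 solute carriers 18 were lower in either scaling, with a median of -0.09, or -0.06 under quantile normalization, and 17 without the 3 libraries, with a median of -0.13. Slc2a1, the glucose transporter of the barrier, was at -0.07 ± 0.08. Slc3a2, the heavy chain of the large neutral amino acid transporter, had 624, 664, 662 and 664 with S1P, against 676, 699, 714 and 780 with the agonist. These 2 groups did not overlap, and the log2 difference was -0.13 ± 0.08. Slc19a3, a thiamine transporter, had 75, 60, 75 and 61 with S1P and 74, 83, 83 and 89 with the agonist, a log2 difference of -0.28 ± 0.16.

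Leukocyte adhesion molecules, chemokines and NF-kB targets are what inflamed endothelium raises. Of 27 tested, 24 were lower and 3 higher with S1P, 0 were called, and the median log2 difference was -0.12, or -0.09 under quantile normalization. With the replicate block and without the 3 libraries unlike their number, 14 were lower and 13 higher, with a median of -0.00, and without S1P replicate 4 the median was -0.19. Without the 3 libraries and with no block 20 were lower, with a median of -0.24. Icam1 averaged 916 ± 107 with S1P and 967 ± 113 with the agonist, and Vcam1 averaged 2131 ± 394 with S1P and 2295 ± 305 with the agonist. The chemokine gene Cxcl10, which interferon induces, had 26, 19, 15 and 33 with S1P, against 59, 19, 25 and 99 with the agonist and 16, 25, 24 and 76 with vehicle. Replicate 4 was the highest library in all 3 groups, and the interval of the Cxcl10 difference, -1.99 to 0.28, covered 0.

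Interferon response genes had the lowest median of the pathway lists. Type I interferons act through a transcription factor complex that includes IRF9 and binds the interferon-stimulated response element upstream of genes for antiviral proteins. Of 36 tested, 35 (97.2%) had lower and 1 had a higher mean with S1P, beside 52% lower over all tested genes. The median log2 difference was -0.23, beside -0.00 over all tested genes, and 34 of 36 were lower under quantile normalization. None was called, and 4 were under an unadjusted p of 0.05, all lower, where 37 of all tested genes (0.302%) were lower at that mark. With the replicate block 12 were, beside 234 of all tested genes (1.91%). Against vehicle the median was -0.16 for S1P (30 lower, 6 higher) and 0.06 for the agonist (6 lower, 30 higher).

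Irf9, part of the factor itself, had 321, 311, 284 and 352 normalized counts with S1P, against 378, 337, 370 and 465 with the agonist and 382, 335, 341 and 350 with vehicle. The ligand groups overlapped slightly, and the log2 difference was -0.28 ± 0.10 (SE), with a 95% interval of -0.49 to -0.07. Usp18, the protease that removes ISG15 and dampens the receptor, had 122, 96, 106 and 131 with S1P, against 160, 109, 132 and 270 with the agonist, a log2 difference of -0.48 ± 0.22. Ifi44 had 182, 156, 196 and 194 with S1P, against 248, 230, 181 and 388 with the agonist, a log2 difference of -0.47 ± 0.22. In all of these genes agonist replicate 4 was the highest library.

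Agonist replicate 4 decided much of the size of the list's median. Summed over the list, the S1P libraries held 11843, 11366, 9923 and 10538 normalized counts, the agonist libraries 13145, 11268, 10216 and 15994, and the vehicle libraries 12249, 11667, 10724 and 13077. The S1P and agonist sums overlapped. Replicate 4 had the highest sum with basal S1P (11928), as with vehicle, and barely with the basal agonist (12130, against 12116 in replicate 2). Apical S1P replicate 4, at 10538, did not, and by Xist it was unlike its number. The list's difference cannot be told apart from the lack of such a library in the apical S1P group. Without agonist replicate 4 the median was -0.08, with 31 of 36 lower. It was -0.36 without agonist replicate 3, -0.14 without S1P replicate 3, -0.20 without the 3 libraries unlike their number and -0.16 when the block was added to that. The genes with the widest gaps were those in which the same library stood out: the antiviral gene Rsad2 had 184, 130, 36 and 81 with S1P, against 242, 96, 103 and 507 with the agonist, a log2 difference of -1.02 ± 0.59. Mx2, a dynamin-like GTPase, was at -1.09 ± 0.65. Psmb9, an immunoproteasome subunit, was the 1 member that was higher, at 0.02 ± 0.07. Irf1, which responds most to interferon gamma, was at -0.02 ± 0.07. Ifit3, at -0.41 ± 0.35, has a near-identical copy, so its value is uncertain.

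**Figure D4:**
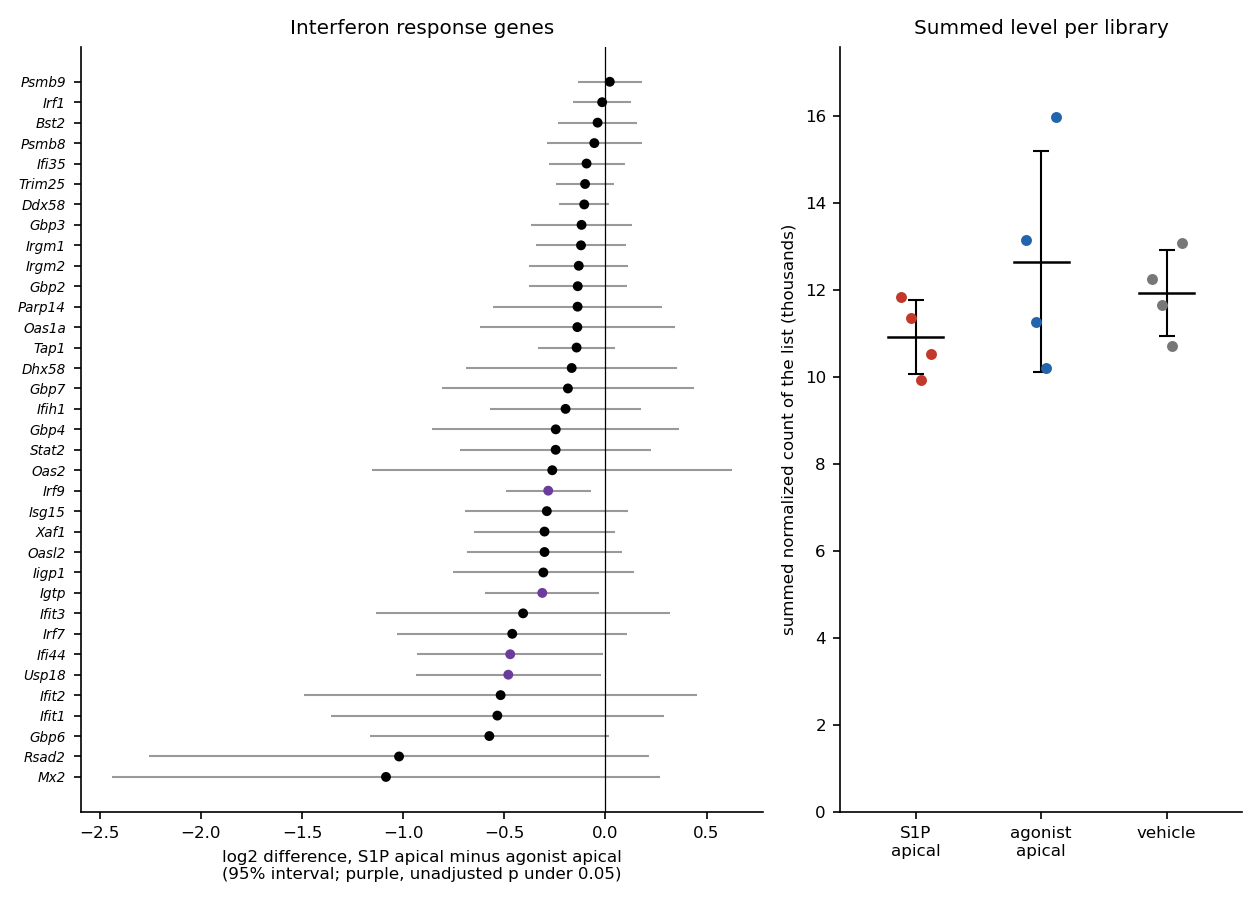
Left, the log2 difference, S1P apical minus S1P4 agonist apical, of 35 of the 36 tested interferon response genes with 95% intervals (limma, 20 libraries); purple points had an unadjusted p under 0.05 and none passed adjustment. Right, the summed normalized count of the list in each library of S1P apical (red), S1P4 agonist apical (blue) and vehicle (grey), divided by 1000, with means and SD (n = 4 each). The highest agonist library, replicate 4, stands at 15994, above every other library shown.

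Promoter windows were read from RefSeq (GRCm38.p6) for 27 of the 36 genes. They were searched on both strands of the 250 bases before the start for a core of the response element, GAAA followed by any 2 bases and GAAA again. A window held it in 13 of the 27 genes (48.1%), beside 296 of 9508 tested genes with a window (3.11%). A match is a description of the sequence and not a bound site. Windows of 3 members are shown because they are the 3 with the smallest p among those holding the motif, which stands in capitals. Both windows of Irf9 lacked these letters. The windows lie at chr11:58199306-58199555 (plus strand) for Igtp, chr12:26456453-26456702 (minus) for Rsad2 and chr4:156200819-156201068 (minus) for Isg15, each printed 5′ to 3′ toward the gene.
Igtp: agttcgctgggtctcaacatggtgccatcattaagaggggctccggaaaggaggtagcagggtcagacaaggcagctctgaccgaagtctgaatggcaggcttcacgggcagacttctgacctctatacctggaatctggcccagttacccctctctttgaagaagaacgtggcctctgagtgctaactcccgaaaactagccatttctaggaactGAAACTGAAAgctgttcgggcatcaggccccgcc
Rsad2: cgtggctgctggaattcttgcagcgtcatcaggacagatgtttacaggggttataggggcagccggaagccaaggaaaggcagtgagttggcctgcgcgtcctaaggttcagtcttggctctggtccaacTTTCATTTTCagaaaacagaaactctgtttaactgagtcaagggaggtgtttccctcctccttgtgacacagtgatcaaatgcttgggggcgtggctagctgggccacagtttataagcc
Isg15: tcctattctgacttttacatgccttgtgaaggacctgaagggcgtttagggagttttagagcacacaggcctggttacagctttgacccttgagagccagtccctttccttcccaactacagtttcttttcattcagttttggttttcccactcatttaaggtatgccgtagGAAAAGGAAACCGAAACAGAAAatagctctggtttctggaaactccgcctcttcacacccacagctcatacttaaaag
The Igtp window held 1 match that began 34 bases before the start, the Rsad2 window held 1 on the opposite strand, and the Isg15 window held 3 that overlap one another. Isg15 itself, a ubiquitin-like modifier, had 100, 91, 83 and 112 normalized counts with S1P, against 100, 105, 99 and 183 with the agonist, a log2 difference of -0.29 ± 0.19 (SE). The other 3 agonist libraries, at 99 to 105, lay within the S1P range of 83 to 112, so agonist replicate 4 alone stood above it.

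Cell cycle genes had the highest median of the longer pathway lists. Of 24 tested, 21 (87.5%) were higher and 3 lower with S1P, 0 were called, and the median log2 difference was 0.17, or 0.19 under quantile normalization. Mcm5, a subunit of the replicative helicase, had 643, 695, 808 and 651 with S1P, against 712, 653, 560 and 516 with the agonist, a log2 difference of 0.20 ± 0.11. The mitotic kinase gene Cdk1 had 402, 427, 435 and 352 with S1P, against 407, 361, 295 and 316 with the agonist, a log2 difference of 0.23 ± 0.13. Both pairs of groups overlapped: in each, agonist replicates 3 and 4 were lowest. Ccnd2, the gene of cyclin D2, went the other way at -0.14 ± 0.09, and Mki67 was at 0.21 ± 0.46.

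The cell cycle median depended on the libraries. It was 0.06 without agonist replicate 3, 0.30 without agonist replicate 1, 0.28 without S1P replicate 4 and 0.09, 0.11 and 0.11 without S1P replicate 2, S1P replicate 1 and agonist replicate 4. It was 0.30 without the 3 libraries unlike their number and -0.00, with 11 of 24 higher, when the block was added to that. At an unadjusted p under 0.05 the list had 0 members higher and 0 lower, and with the block over all libraries 7 higher and 1 lower, beside 295 higher (2.41%) and 234 lower (1.91%) of all tested genes. Pericyte markers were also mostly higher: 7 of 8 tested had higher means with S1P, 0 were called, and their median log2 difference of 0.61 was 0.07 without agonist replicate 4 and 1.36 without the 3 libraries. The 3 most abundant pericyte markers were Cspg4 at 0.64 ± 0.86, Notch3 at 0.58 ± 0.93 and Pdgfrb at 0.71 ± 0.79. Smooth muscle markers (8 of 11 higher, median 0.29) and fibroblast markers (7 of 7 higher, median 0.72) had positive medians too, with 0 called. The smooth muscle median was 0.06 without agonist replicate 4, 0.12 without S1P replicate 3 and 0.45 without the 3 libraries. The fibroblast median was 0.22 with 4 of 7 higher without agonist replicate 3, 1.66 without S1P replicate 4 and 2.25 without the 3 libraries. In bulk RNA, fewer cells of a type and less RNA per cell cannot be told apart, and the part of these cells in the cell cycle values was not tested.

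Endothelial markers were lower with S1P in 20 of 20 genes, with a median log2 difference of -0.07, and in 11 of 20 under quantile normalization, with a median of -0.02. Without the 3 libraries unlike their number 14 of 20 were lower, with a median of -0.08. Kdr, the main receptor for VEGF, had 2878, 2833, 2849 and 2865 with S1P, against 3047, 2867, 2827 and 2910 with the agonist, a log2 difference of -0.03 ± 0.05. Of the 20 markers, 11 averaged 1000 or above.

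Signalling lists showed small differences of both signs and no called gene. BMP and TGF-beta genes had 10 higher and 13 lower of 23, with a median of -0.03. Under quantile normalization 13 were higher and the median was 0.02. It was 0.04, 0.02 and 0.00 without S1P replicate 1, S1P replicate 2 and agonist replicate 3, and -0.07, with 16 lower, without the 3 libraries unlike their number. Bmp2 had 232, 192, 147 and 241 with S1P, against 168, 256, 374 and 382 with the agonist and 214, 276, 379 and 349 with vehicle, a log2 difference of -0.49 ± 0.33. It became 0.04 with the block and without the 3 libraries. Notch genes had 6 higher and 12 lower of 18, with a median of -0.02, and -0.00 under quantile normalization. They had 10 of 18 higher, with a median of 0.02, without the 3 libraries. The ligand gene Dll4 had 1410, 1319, 1180 and 1511 with S1P, against 1539, 1502, 1593 and 1690 with the agonist, a log2 difference of -0.23 ± 0.09 at an unadjusted p of 0.0202. Of Wnt genes 14 of 19 were lower (73.7%, median -0.03), and of VEGF and angiopoietin genes 13 of 18 (72.2%, median -0.04). Over all tested genes 52% were lower, with a median of -0.00. Under quantile normalization 11 Wnt genes were higher with a median of 0.00, and 11 VEGF and angiopoietin genes were higher with a median of 0.01. Without the 3 libraries the medians were 0.02 with 10 of 19 higher for Wnt and -0.03 with 10 of 18 lower for VEGF and angiopoietin.

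S1P receptors that couple to G12/13 act on RhoA, actin and the factors MRTF and YAP, so these lists were described too. RhoA and Rac regulators had 7 higher and 21 lower of 28, with a median of -0.05, or -0.01 under quantile normalization and -0.10 without the 3 libraries. YAP and TAZ targets had 9 higher and 9 lower of 18, with a median of 0.00. For them 11 were higher under quantile normalization, with a median of 0.03, and 9 lower without the 3 libraries, with a median of -0.02. Of 26 MRTF and SRF targets and actin genes 17 were lower and 9 higher, with a median of -0.06, or -0.00 under quantile normalization and -0.13 without the 3 libraries. The immediate-early gene Egr1 was the one under an unadjusted p of 0.05, with 870, 784, 586 and 811 in the S1P libraries, against 1110, 894, 782 and 977 in the agonist libraries. These groups overlapped, and the log2 difference was -0.31 ± 0.14. Of the 21 flow-responsive genes 15 were lower, with a median of -0.07, or -0.01 under quantile normalization. The median was -0.08 without the 3 libraries, and with the block as well it was 0.01 with 11 higher. Among them, the mechanosensitive channel gene Piezo1 had 3186, 3134, 3144 and 3083 with S1P, against 3580, 3371, 3199 and 3197 with the agonist. Its groups did not overlap, but its log2 difference of -0.09 ± 0.05 became 0.00 under quantile normalization. Klf2 was at -0.32 ± 0.31 and Klf4 at -0.46 ± 0.45.

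Basement membrane and integrin genes (20 of 22 lower, median -0.08) were the most abundant list, with 19 of 22 at 1000 or above, and the median was -0.02 under quantile normalization and -0.11, with 17 lower, without the 3 libraries. Cholesterol synthesis genes were lower in 20 of 23 in either scaling, with a median of -0.09. That median was -0.19 without agonist replicate 1, -0.17 without S1P replicate 3, -0.05 with 14 of 23 lower without agonist replicate 2, and -0.10 without the 3 libraries. Lss, the gene of lanosterol synthase, had 211, 214, 270 and 216 with S1P, against 230, 384, 213 and 312 with the agonist, groups that overlapped, and a log2 difference of -0.29 ± 0.17. Genes of the integrated stress response were lower in 20 of 24, with a median of -0.05, or -0.03 under quantile normalization. There were 11 lower without S1P replicate 1 and 12 lower without agonist replicate 3, with medians of 0.00, and 24 lower without the 3 libraries, with a median of -0.20. Protease and TIMP genes were lower in 12 of 15, with a median of -0.09, or -0.04 with 9 lower under quantile normalization and -0.04 with 8 lower without the 3 libraries. The remaining lists had medians near 0 with all 8 libraries, and these moved with single libraries. Coagulation genes (10 of 18 lower, median -0.01) had medians of -0.05 to 0.02 when 1 library was left out, 0.01 under quantile normalization and -0.06 without the 3 libraries. Hypoxia and glycolysis genes (14 of 23 lower, median -0.02) ran from -0.06 to 0.03 in the same way, with 0.01 under quantile normalization and -0.11 without the 3 libraries. Nrf2 targets (11 of 20 lower, median -0.01) ran from -0.04 to 0.07, with -0.00 under quantile normalization and -0.13 without the 3 libraries. Nuclear oxidative phosphorylation genes (15 of 33 lower, median 0.01) had a median of 0.02 under quantile normalization. It was -0.04 with 25 lower without agonist replicate 1, 0.08 with 0 lower without agonist replicate 3, and -0.11 with 30 lower without the 3 libraries. Cytosolic ribosomal protein genes (31 of 42 lower, median -0.03) kept that median under quantile normalization. When 1 library was left out it ran from -0.08, without S1P replicate 4, to 0.04, without agonist replicate 3, with 10 to 37 lower. It was -0.12 with 39 lower without the 3 libraries.

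Whether the 2 ligands differed in another way from the apical than from the basal side was tested as an interaction over the 20 libraries. It called 0 genes (0%), with 183 at an unadjusted p under 0.05 (1.49%), and 2 genes (0.0163%) with the replicate number as a block, Atoh8 (limma adjusted p = 0.00218) and Ackr4 (adjusted p = 0.039). On the basal side itself, S1P differed from the agonist in 3 genes (0.0245%): Atoh8, Cpm and Ackr4. Atoh8, a transcription factor of the atonal family, averaged 288 ± 34.9 with apical S1P and 259 ± 48.2 with the apical agonist, and 129 ± 13.96 with basal S1P and 251 ± 27.4 with the basal agonist (SD, n = 4 each). Its interaction was 1.13 ± 0.18 (log2, SE; limma adjusted p = 0.102 with no block). Basal S1P replicate 2, unlike its number by Xist, was kept in every interaction fit, also in the blocked ones. Its deviations correlated at 0.0291 with vehicle replicate 2 and at 0.662 with apical S1P replicate 3. The blocked calls have to be read with that mismatch in mind. The basal S1P libraries held 140, 128, 137 and 109 normalized counts for Atoh8.

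Ackr4, an atypical chemokine receptor that scavenges chemokines, had 150, 181, 136 and 93 with apical S1P and 161, 132, 108 and 126 with the apical agonist, groups that overlapped. It averaged 51.5 ± 9.75 with basal S1P and 124 ± 22.1 with the basal agonist, and its interaction was 1.31 ± 0.30 (adjusted p = 1.00 with no block). Cpm, a membrane carboxypeptidase, averaged 535 ± 43.7 with apical S1P and 571 ± 20.4 with the apical agonist, and 384 ± 35.3 with basal S1P and 557 ± 24.5 with the basal agonist, an interaction of 0.44 ± 0.10 (adjusted p = 1.00, or 0.244 with the block). In these 3 genes the apical log2 differences were 0.16 ± 0.13, 0.06 ± 0.21 and -0.10 ± 0.07 for Atoh8, Ackr4 and Cpm, with intervals of -0.11 to 0.44, -0.38 to 0.50 and -0.24 to 0.05. Gpt2 had an interaction of -0.70 ± 0.18: it averaged 56.5 ± 6.03 with apical S1P and 79.3 ± 10.4 with the apical agonist, and 89.3 ± 10.9 with basal S1P and 76.3 ± 9.46 with the basal agonist. That value also did not pass (adjusted p = 1.00).

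**Figure D5:**
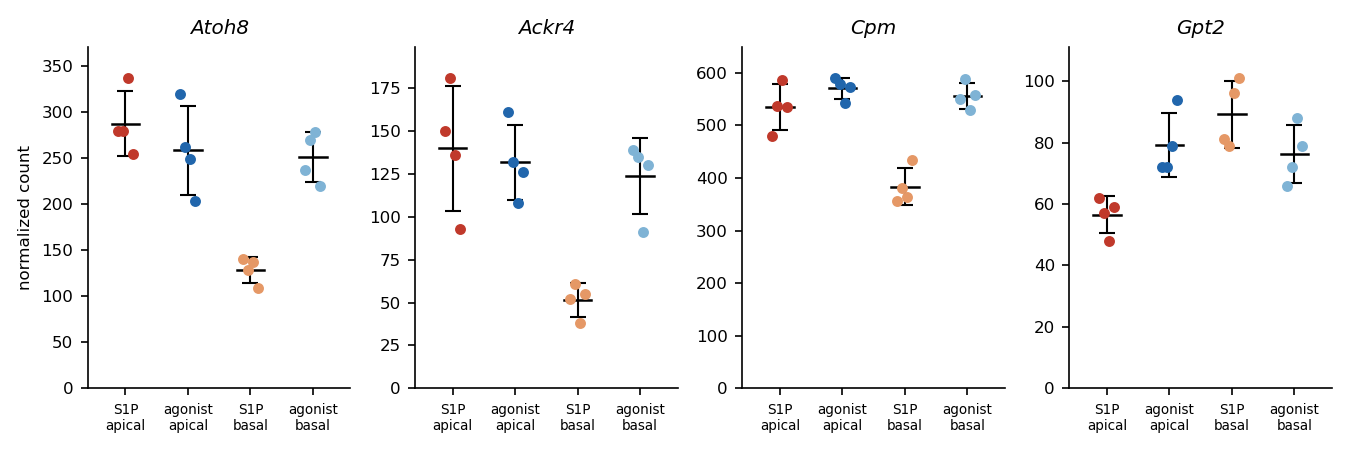
Normalized counts of Atoh8, Ackr4, Cpm and Gpt2 in single libraries of S1P apical (red), S1P4 agonist apical (blue), S1P basal (orange) and S1P4 agonist basal (light blue), with means and SD (n = 4 each) and y axes from 0. Basal S1P is the low group for Atoh8, Ackr4 and Cpm, and apical S1P is the low group for Gpt2.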

How the data were processed

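RNA of wild-type MBMECs was compared between apical S1P and the apical S1P4 agonist. Per the submitters' processing notes, which give neither roles nor an order, the tools were Trimmomatic 0.38, STAR 2.7.3a, featureCounts 1.6.5, DESeq2 1.26.0 and FastQC, and the build was mm10. The sources used here do not give the strand setting of the counting, so sense and antisense reads may not be told apart. The deposited values are a signal: whole numbers per gene that the authors had already scaled between libraries, called normalized counts here. They are not raw reads, so no count model was used and the depth in reads is unknown.

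Values were taken as log2(value + 1), a scale on which differences of low genes come out smaller than they are. Genes averaging 10 or more were fitted as group means with limma 3.58.1 (R 4.3.3) and a mean-dependent prior variance, over the 20 libraries of the 5 wild-type groups. Benjamini-Hochberg adjustment ran over all 12249 genes, and calls were made under 0.05. The procedure was tested on simulated data with known changes, and how many of them it recovered is not printed here. The simulated libraries were drawn independently, with no shared replicate number and no uneven pericyte content. That test therefore does not show how the fit behaves under these. In all 21 alternative settings were run. The replicate numbers are in the labels, which do not say what a number shares. Deviations of same-numbered S1P apical and agonist apical libraries from their group means correlated at 0.695, 0.14, 0.4 and 0.171 across genes, all over 0.1, so the value with a replicate block is given where it moves a count. S1P replicates 2 and 4 correlated more with agonist replicates 1 and 3, at 0.549 and 0.7, than with the agonist library of their own number, so the block is no sure match of cultures. Over the 4 treated groups 21 of 24 such pairs were over 0.1, and the lowest was -0.345, between apical and basal S1P replicate 2.

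Named genes were the S1P receptors, the 10 per direction with the smallest p among genes whose groups did not overlap, the 3 members of each list with the smallest p, the 3 most abundant markers of each other cell type, and Atoh8, Ackr4 and Cpm. Abcg2, Cldn5, Icam1, Ifi44, Ifit3, Irf1, Isg15, Klf2, Klf4, Mki67, Mx2, Ocln, Psmb9, Rsad2, Sgpl1, Slc2a1, Sphk2, Spns2, Tjp1 and Vcam1 were added after their values were seen. The comparison and the 27 pathway and 10 marker lists were chosen with earlier results of these data known. A few list members count in the lists but are not reported here by name.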

Additional observations from a re-analysis of the deposited data

Results flagged for a closer look

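A library was examined as standing apart when its gap to the nearest of the 3 others of its group took up most of the group's whole range, by Dixon's 95% critical value. Over all genes named in the text 316 groups of 4 were examined and 20 met this, where chance alone flags about 1 in 20. With S1P, replicate 3 stood apart at 85 normalized counts for Pyurf (the others at 66 to 67), 10 for Gm12250 (25 to 28), 1077 for Efnb2 (1418 to 1483), 270 for Lss (211 to 216) and 1156 for Spns2 (884 to 920). S1P replicate 4 stood apart at 471 for Trpv4 (367 to 377), 3602 for Flt1 (4124 to 4231), 16 for Col1a1 (248 to 264) and 248 for Tubb3 (80 to 100), and S1P replicate 1 at 624 for Slc3a2 (662 to 664). With the agonist, replicate 3 stood apart at 631 for Asah2 (816 to 824), 314 for Nectin1 (351 to 356), 1099 for Insr (1287 to 1301) and 1447 for Ndrg1 (1511 to 1518). Agonist replicate 2 stood apart at 44 for Rmdn1 (34 to 35) and 88 for Myl12b (65 to 68), replicate 1 at 215 for F2rl1 (349 to 369), and replicate 4 at 342 for Igtp (214 to 228), 230 for Stmn2 (84 to 105) and 183 for Isg15 (99 to 105).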

How the results depend on the processing

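The comparison called 0 genes in all 21 alternatives, and of 100 genes followed 75 kept their sign in every one. The 101 genes at an unadjusted p under 0.05 became 529 with the replicate block, 242 with the block over only the 8 libraries compared, 430 with array weights, 335 of 18091 with no filter on low values, 175 without the 3 libraries unlike their number, 239 with the block added to that, and 83 to 195 when 1 library was left out. The interaction called 2 genes with the replicate block (0.0163%), Atoh8 and Ackr4 (adjusted p = 0.00218 and 0.039 by limma). It called 1 with the block over only the libraries compared, 2 with array weights and 2 with the block without the 3 libraries. With 1 library left out it called 0 to 1, the 1 being without agonist apical replicate 1. The labels do not say what a replicate number shares. Signs of log2 differences turned as follows, and some of these differences were not small. In the main fit Axl was at 0.69 ± 0.76 (SE), Tfpi2 at 0.58 ± 0.43, Bmp2 at -0.49 ± 0.33 and Adamts4 at -0.42 ± 0.25. Without the 3 libraries S1pr2 was -0.15, S1pr4 -0.22, Asah2 0.071, Cldn12 -0.057, Insr 0.030, Abca2 0.0049, Abcb1a 0.017, Smad1 0.016, Vegfa 0.051, Psat1 -0.013 and Ndufs1 -0.012. With the replicate block as well, S1pr2 was -0.015, S1pr4 -0.029, Abca1 0.18, Asah2 0.023, Cldn12 -0.036, Nectin1 0.038, Insr 0.023, Abcb1a 0.023, Bmp2 0.035, Smad1 0.12, Jag2 0.0024, Efnb2 0.061, Nos3 0.0072, Axl -0.0096, Lama5 0.045, Lamc1 0.0094, Adamts4 0.075, Tfpi2 -0.13, Psat1 -0.015 and Ndrg1 0.012. Under quantile normalization S1pr4 was -0.018 and Piezo1 0.0041, and with array weights S1pr4 was -0.12. With 1 library left out S1pr4 ran from -0.090 to 0.16 and Ackr4 from -0.074 to 0.24. The cause of these turns was not tested.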
